A study of Ictidomys tridecemlineatus with 15 samples.

Results

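Nuclear receptors and related sensors of foreign compounds and lipids were examined in liver by nascent transcription. The set was a list of 9 genes: Nr1i2, Nr1i3, Ahr, Rxra, Nr1h3, Rora, Ppard, Esr1 and Por. A unit of the count table was taken as a member when its name, split at the colons that join merged genes, equalled 1 of these symbols. This gave 8 of the 6324 units, 5 with a single gene name and 3 merged units, Apoa2:Nr1i3, Madd:Nr1h3 and Ice2:Rora. The counts of a merged unit cannot be divided between its genes, so no value of Nr1i3, Nr1h3 or Rora alone is given. No unit had the name Por, which was not analysed here.

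Global run-on sequencing (GRO-seq) labels RNA that engaged polymerases extend in isolated nuclei. Its reads count polymerases still able to elongate, whatever the RNA level. The authors propose that initiation and termination stop in torpor and that elongation goes on very slowly. A level in torpor therefore need not reflect new initiation, which was not tested here. The livers came from laboratory-housed female 13-lined ground squirrels, each library from a separate animal. SA (summer active, n = 3) animals were homeothermic and sampled before the hibernation season. The winter animals were followed by telemetry through the torpor-arousal cycle and were interbout aroused (IBA, n = 3), entering torpor (Ent, n = 3), in early torpor (ET, n = 3) or in late torpor (LT, n = 2). A further LT library was not analysed here. Total counts per library ranged from 3713883 to 8884763. The ET animals were all collected in a season of their own and the IBA and LT animals in different seasons, so for ET the season and the state cannot be told apart.

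These proteins are mostly ligand-activated transcription factors. Nr1i2 encodes PXR and Nr1i3 encodes CAR, which sense drugs, bile acids and other foreign or toxic compounds and induce the enzymes and transporters that clear them, while Ahr encodes the aryl hydrocarbon receptor, a sensor of planar aromatic compounds. Rxra encodes the partner with which PXR, CAR, LXR alpha (Nr1h3) and PPAR delta (Ppard) bind DNA. LXR alpha responds to oxysterols, ROR alpha (Rora) acts in lipid metabolism and in the circadian clock, PPAR delta responds to fatty acids and Esr1 encodes estrogen receptor alpha.

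A unit was called when its Benjamini-Hochberg adjusted p over all 6324 units in the quasi-likelihood test of edgeR was 0.05 or less. Levels are CPM, the counts scaled by TMM library size, and means ± SD are over the 3 libraries of a state (n = 3), or the 2 of LT (n = 2). Different genes are compared as CPM per kb of unit. Among the 5 states 6 of the 8 units were called, beside 62% of all units. At the stricter adjusted p of 0.001 that number was 2, Nr1i2 and Ahr, beside 25.5% of all units. It was 5 with DESeq2, beside 50% of all units, 2 with limma-voom (23.8%) and 1 with the replicate number as a block (18.8%). With uniquely mapped reads it was 1 (28.5%), and with the season as a term and without ET it was 0 (1.23%). It was also 1 without SA replicate 1 (21.8%), Ent replicate 2 (21.1%), ET replicate 1 (21%) or ET replicate 2 (20.5%). The remaining units, Ppard and Esr1, had adjusted p-values of 0.903 and 0.741 in the same edgeR test. From the warm states (mean of SA and IBA) to the cold states (mean of ET and LT), 2 units rose and 4 fell, beside 64.5% of all units called. From summer (SA) to winter (mean of the other states), 2 rose and 4 fell as well, beside 44.3% called. The 2 comparisons share libraries. The members' shares in the first of them were close to the background, so no statement about the set as a whole is made from these counts. A p that misses the threshold does not show that values did not differ. Scaling by library size hides a change in total transcription: with libraries scaled to uniquely mapped reads instead, the median warm to cold log2 fold change of all units moved up by 0.23.

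Per kb of unit, the order of mean levels over all 14 libraries was Apoa2:Nr1i3 (23.6 CPM per kb), Rxra (8.11), Nr1i2 (5.45), Madd:Nr1h3 (3.30), Ahr (2.25), Ppard (1.34), Ice2:Rora (1.002) and Esr1 (0.812). Apoa2:Nr1i3 ranged from 9.59 to 47.7 CPM per kb over the libraries, Rxra from 4.95 to 17.9 and Nr1i2 from 2.60 to 9.66, so these neighbours in the order overlapped. The same held for Nr1i2 and Madd:Nr1h3 (2.41 to 4.69), for Madd:Nr1h3 and Ahr (0.881 to 4.78), for Ahr and Ppard (0.811 to 2.10), for Ppard and Ice2:Rora (0.686 to 1.32) and for Ice2:Rora and Esr1 (0.585 to 1.03). Apoa2:Nr1i3 stood at the 98.8th percentile of all units by this measure, and Apoa2, which encodes an abundant plasma apolipoprotein, shares that value.

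**Figure D1:**
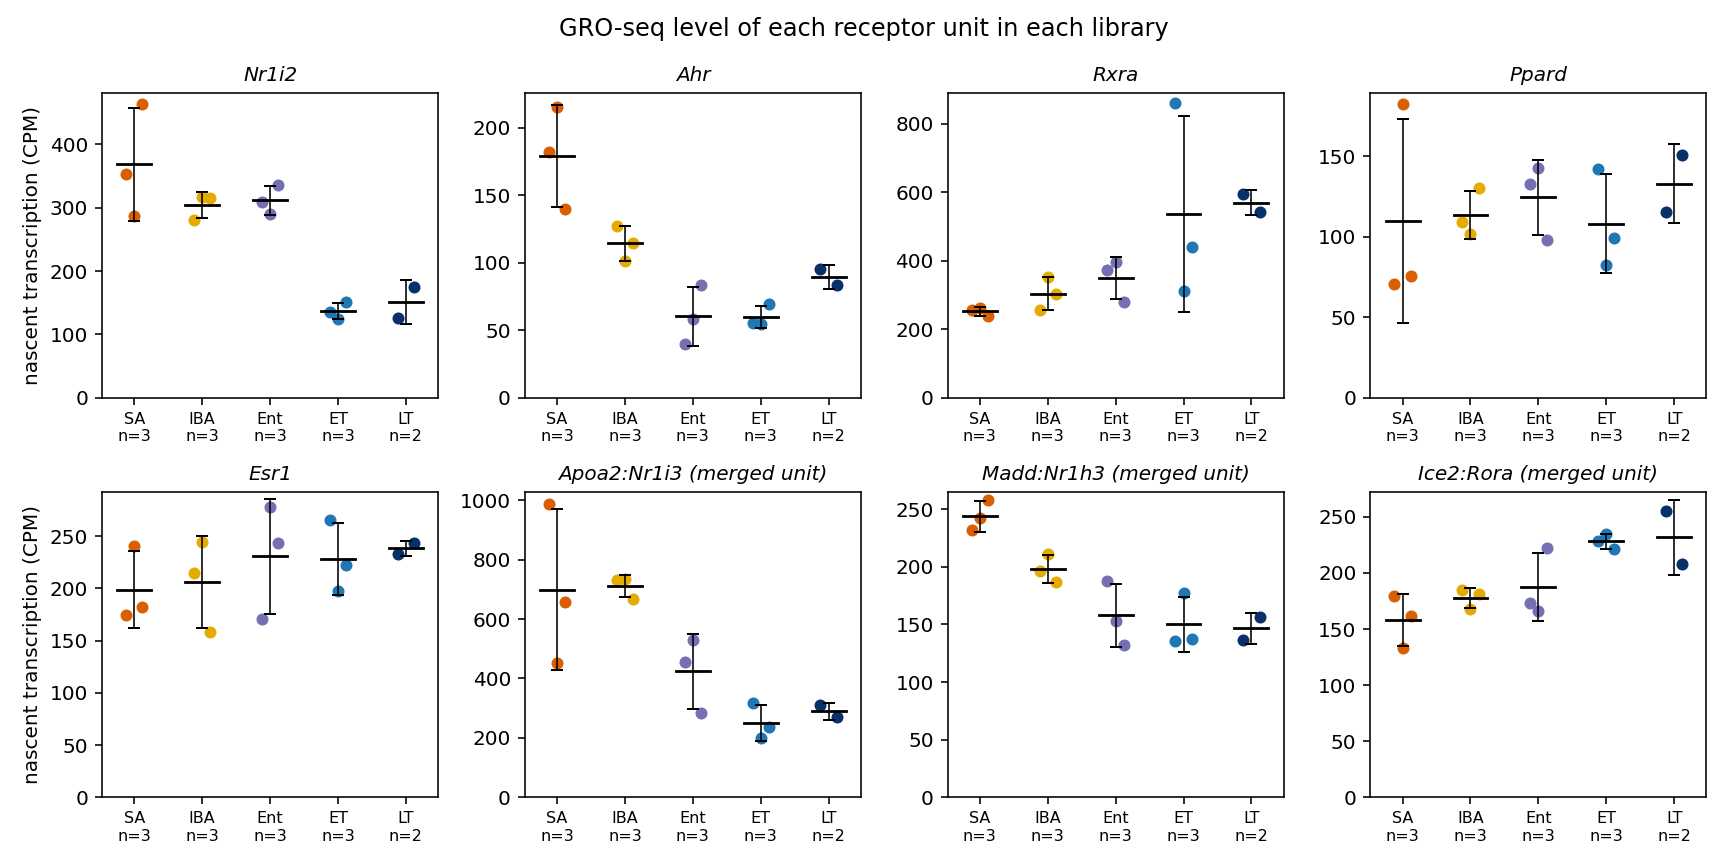
Nascent transcription of each of the 8 units in CPM (vertical axes, each from 0) by state (horizontal axes), with libraries as points, means as horizontal bars and SDs as vertical bars. Nr1i2 lies between 125 and 175 CPM in the ET and LT libraries and at 280.2 CPM or more in the others.

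Nr1i2 (Itri7, minus strand, 130782032 to 130830106, HiC_Itri_2 build) had its lowest levels in torpor. Its CPM was 354, 288 and 464 in the SA libraries, 280.2, 317 and 315 in IBA, and 309, 291 and 336 in Ent. It was 135, 125 and 151 in ET and 126 and 175 in LT. The 5 torpid libraries all lay below the 9 others, and SA, IBA and Ent overlapped one another. From Ent to ET its log2 fold change was -1.19 (95% interval from -1.57 to -0.81, edgeR adjusted p = 0.000880), and from LT to IBA 1.02 (95% interval from 0.58 to 1.45, edgeR adjusted p = 0.00128). From warm to cold it fell by 1.22 on the log2 scale (95% interval from -1.52 to -0.93, edgeR adjusted p = 7.0e-06). The Nr1i2 unit overlaps the unit of Gsk3b, on the other strand, by 13018 nt. The authors describe the reads as strand-specific, but the sources used here do not state whether the reads were counted by strand. Without strand, reads of the 2 genes in that stretch cannot be told apart. Gsk3b itself had a warm to cold log2 fold change of -0.07 (edgeR adjusted p = 0.740).

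CAR could be read only together with Apoa2 (Itri11, minus strand, 7304076 to 7324772). The unit's CPM was 987, 451 and 657 in SA, 732, 734 and 667 in IBA, 456, 529 and 285 in Ent, 317, 199 and 238 in ET, and 309.7 and 269 in LT. All torpid libraries lay below all SA and IBA libraries. Ent overlapped SA, ET and LT but lay below IBA. The unit fell by 1.39 on the log2 scale from warm to cold (95% interval from -1.86 to -0.92, edgeR adjusted p = 0.000117) and rose from LT to IBA (log2 fold change 1.30, edgeR adjusted p = 0.00558). Without LT replicate 3 the adjusted p of the rise was 0.0512, and without SA replicate 1 that of the fall from summer to winter, 0.00623 with all libraries, was 0.0724.

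Ahr (Itri2, plus strand, 76063318 to 76108403) was highest in summer. Its CPM was 182, 216 and 140.1 in SA and 127, 101 and 115 in IBA. It was 39.7, 58.4 and 83.2 in Ent, 55.1, 54.8 and 69.4 in ET, and 95.7 and 83.4 in LT. Every SA library lay above every winter library, and every IBA library above every Ent, ET and LT library. From summer to winter Ahr fell by 1.20 on the log2 scale (95% interval from -1.58 to -0.82, edgeR adjusted p = 0.000267), and from warm to cold by 0.97 (edgeR adjusted p = 0.000473). From IBA to Ent it fell by 0.92 (95% interval from -1.44 to -0.40, edgeR adjusted p = 0.0224), a call lost without IBA replicate 1 or 3 and without Ent replicate 1 or 2, with an adjusted p of at most 0.0818, and in a fit with the season as a term (0.128). In that fit Apoa2:Nr1i3 was called instead from IBA to Ent (log2 fold change -1.31, edgeR adjusted p = 0.0158), where without the season it had -0.75 and was not called (edgeR adjusted p = 0.0853). The differences from SA to IBA (log2 fold change -0.65, edgeR adjusted p = 0.132) and from ET to LT (0.58, edgeR adjusted p = 0.551) were not called, although neither pair of groups overlapped.

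Rxra (Itri3, plus strand, 200612958 to 200661093), the shared partner, ran the other way. Its CPM was 257, 262 and 238 in SA, 255, 352 and 304 in IBA, and 373, 397 and 279.9 in Ent. It was 859.5, 311 and 441 in ET and 595 and 543 in LT. Both LT libraries lay above all SA, IBA and Ent libraries, whereas ET spanned from within the IBA range to the highest value of the series. From warm to cold Rxra rose, with a log2 fold change of 0.998 (95% interval from 0.53 to 1.46, edgeR adjusted p = 0.00129) and of 0.74 without ET replicate 1, the highest library (edgeR adjusted p at most 0.00638 without any 1 library). From LT to IBA it fell by 0.91 (95% interval from -1.59 to -0.22, edgeR adjusted p = 0.0308), a call lost without IBA replicate 1 or 3 or either LT library, with an adjusted p of at most 0.131. From summer to winter it rose by 0.75 (edgeR adjusted p = 0.0240), a call lost without any 1 of the SA libraries (adjusted p at most 0.0858). The log2 fold change from Ent to ET was 0.62 with all libraries (not called), 0.10 without ET replicate 1 and 0.89, a call (edgeR adjusted p = 0.0224), without ET replicate 2.

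The units that hold the genes of LXR alpha and ROR alpha moved in opposite directions. Madd:Nr1h3 (Itri3, minus strand, 19779659 to 19834720) had 232, 242 and 258 CPM in SA, 196, 211 and 187 in IBA, 187, 153 and 133 in Ent, 135, 178 and 138 in ET, and 137 and 156 in LT. Its SA libraries lay above all others, and it fell from warm to cold by 0.57 on the log2 scale (edgeR adjusted p = 0.000694) and from summer to winter by 0.59 (edgeR adjusted p = 0.00145). Its rise of 0.43 from LT to IBA (edgeR adjusted p = 0.0462) was lost on leaving out any of 9 of the 14 libraries, with an adjusted p of at most 0.247. Ice2:Rora (Itri5, minus strand, 103525850 to 103719471) had 179, 133 and 162 CPM in SA, 185, 168 and 181 in IBA, 173, 166 and 222 in Ent, 229, 235 and 221 in ET, and 255 and 208 in LT. Its torpid libraries lay above all SA and IBA libraries, and it rose from warm to cold by 0.46 on the log2 scale (95% interval from 0.22 to 0.69, edgeR adjusted p = 0.00252). From summer to winter it rose by 0.37 (edgeR adjusted p = 0.0226), a call lost without SA replicate 2 or 3 (adjusted p at most 0.113). Its call among the 5 states (edgeR adjusted p = 0.0243) was lost without LT replicate 1 (0.0568) and with the season as a term (0.123).

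Ppard and Esr1 were called in none of the 7 comparisons between states. Ppard (Itri8, plus strand, 40074186 to 40161008) had 70.4, 183 and 75.6 CPM in SA, 109, 101 and 130.1 in IBA, 133, 143 and 98.1 in Ent, 142, 82.7 and 99.1 in ET, and 115 and 151 in LT. The spread within SA covered the range of all other libraries. Its warm to cold log2 fold change was 0.11 (95% interval from -0.42 to 0.64, edgeR adjusted p = 0.719). Without SA replicate 2, its highest library, the unit was called from summer to winter (log2 fold change 0.71, edgeR adjusted p = 0.0189). Esr1 (Itri8, plus strand, 137365490 to 137635331) had 174, 241 and 182 CPM in SA, 215, 245 and 158 in IBA, 170.4, 278 and 243 in Ent, 265, 197 and 222 in ET, and 233 and 243 in LT. All states overlapped, with a warm to cold log2 fold change of 0.21 (95% interval from -0.13 to 0.55, edgeR adjusted p = 0.262). With libraries scaled to their uniquely mapped reads Esr1 was called higher in the cold (log2 fold change 0.43, adjusted p = 0.0213).

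**Figure D2:**
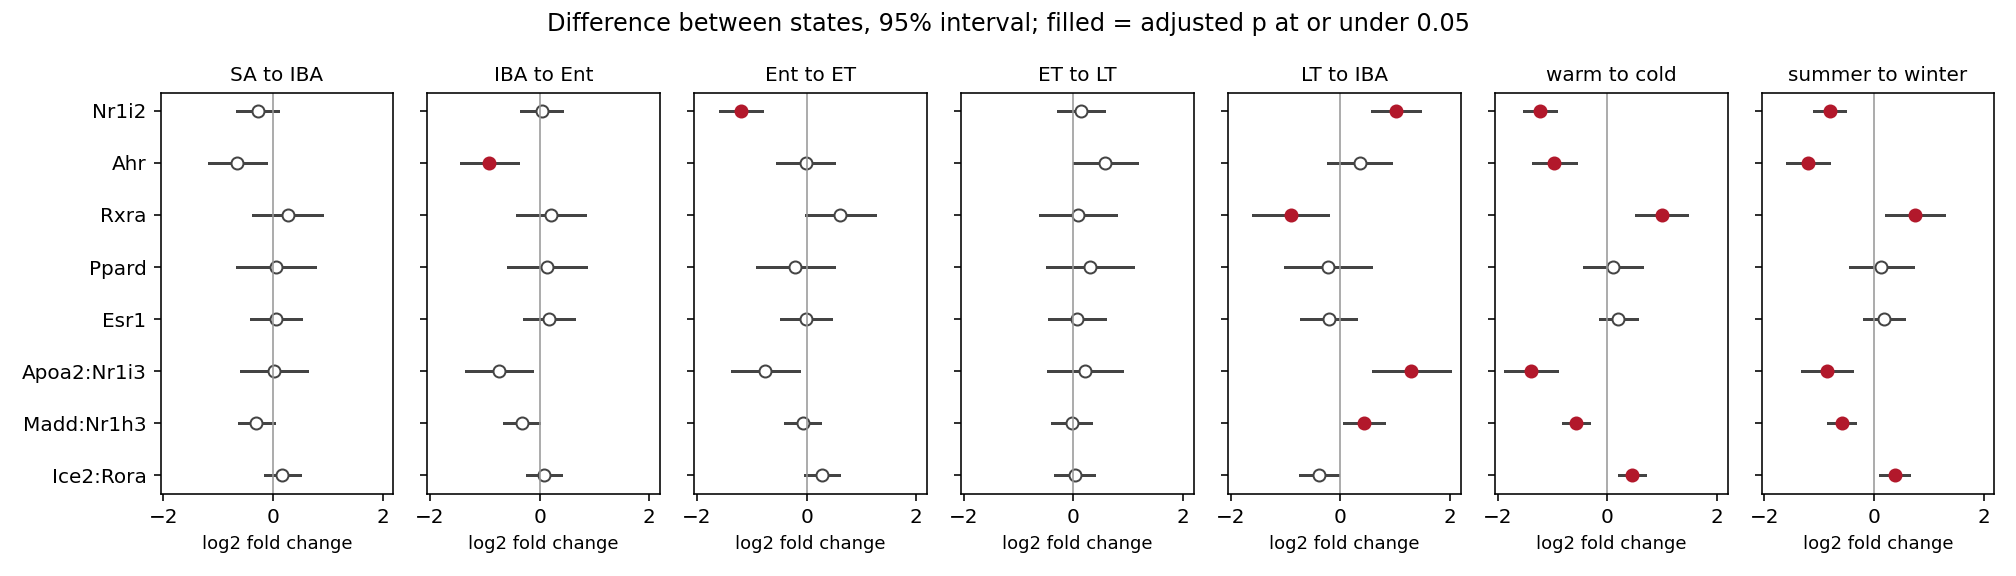
Log2 fold change (horizontal axes) of each of the 8 units in 7 comparisons, with 95% intervals. Filled points had an adjusted p at or under 0.05, and no unit was called from SA to IBA or from ET to LT.

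Steps of the cycle were compared in turn. From SA to IBA edgeR called 0 of the 8 units, beside 5.22% of all units, and DESeq2 and limma-voom also called 0. Only Ahr had an unadjusted p under 0.05 in that edgeR test. From IBA to Ent 1 unit was called (Ahr, lower), beside 16.1%, and from Ent to ET 1 (Nr1i2, lower), beside 28.8%. From ET to LT edgeR called 0, beside 0.269%, as did DESeq2 and limma-voom, and 1 unit (Ahr) had an unadjusted p under 0.05. From LT to IBA 3 units rose (Nr1i2, Apoa2:Nr1i3 and Madd:Nr1h3) and 1 fell (Rxra), beside 49.8%. Ice2:Rora, not called there by edgeR with TMM (adjusted p = 0.0651), was called lower with DESeq2 (0.0425) and with libraries scaled to total counts (0.0176) or to uniquely mapped reads (0.0152).

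Of 29 genes listed as targets of PXR and CAR, 8 had a single-gene unit, and from warm to cold 0 rose, 6 fell and 2 were not called, beside 64.5% of all units called. Their median log2 fold change was -1.48, beside -0.07 over all single-gene units. From summer to winter 0 rose and 5 fell (median -0.97), beside 44.3% of all units called. Alas1, the first enzyme of heme synthesis, had 978 ± 7.59 CPM in SA, 387 ± 28.3 in IBA, 220.0 ± 30.5 in ET and 173 ± 21.3 in LT. It fell by 1.66 on the log2 scale from warm to cold (edgeR adjusted p = 8.9e-07). It was also called lower from SA to IBA (log2 fold change -1.34, edgeR adjusted p = 0.00265). From warm to cold GSTA2, a glutathione transferase, fell by 2.19 (edgeR adjusted p = 4.2e-05) and Gadd45b by 1.30 (edgeR adjusted p = 0.00533). CYP2C8, a drug-metabolizing cytochrome P450, fell by 2.14 (edgeR adjusted p = 4.1e-05). It had 21.6 ± 3.02 CPM in SA, 68.0 ± 29.7 in IBA, 6.17 ± 2.29 in ET and 12.3 ± 6.21 in LT, so part of its fall rests on the high IBA level. Abcc2, which exports conjugates into bile, had a log2 fold change of 0.18 and was not called (edgeR adjusted p = 0.206). With libraries scaled to total counts or to uniquely mapped reads Abcc2 was called higher, and of this list 1 rose and 5 fell.

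Of the 10 listed AhR targets 3 had a single-gene unit, and 2 fell from warm to cold, beside 64.5% of all units called. CYP1A2, a drug-metabolizing cytochrome P450, had 666 ± 491 CPM in SA, 165 ± 81.1 in IBA, 147 ± 45.1 in Ent, 106 ± 131 in ET and 53.2 ± 11.1 in LT. It fell by 2.14 on the log2 scale (edgeR adjusted p = 0.00801), but ET overlapped both SA and IBA, and neither the step from Ent to ET (edgeR adjusted p = 0.676) nor that from LT to IBA (0.1496) was called. Nfe2l2, a regulator of antioxidant genes, fell by 0.46 (edgeR adjusted p = 0.00235), a call lost when libraries were scaled to uniquely mapped reads. Tiparp had a log2 fold change of -0.18 and was not called. The list's median from warm to cold was -0.46. From summer to winter 2 of the list fell (median -0.54), beside 44.3% of all units called.

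Of 17 listed LXR targets 10 had a single-gene unit. From warm to cold 5 rose, 2 fell and 3 were not called, with a median log2 fold change of 0.45, beside 64.5% of all units called. From summer to winter 1 rose and 4 fell (median 0.08), beside 44.3% of all units called. From SA to IBA 0 rose and 3 fell (median -0.58), beside 5.22%. Mylip, which promotes breakdown of the LDL receptor, had 30.5 ± 13.0 CPM in SA, 27.1 ± 7.85 in IBA, 189 ± 56.4 in ET and 257 ± 64.5 in LT. It rose by 2.94 on the log2 scale from warm to cold (edgeR adjusted p = 6.5e-06). Srebf1, which drives fatty acid synthesis, rose by 1.25 from warm to cold (edgeR adjusted p = 0.00611). Fasn, fatty acid synthase, was highest in SA (704 ± 219.8 CPM) and lowest in IBA (124 ± 43.2), with 474 ± 136 in ET and 466 ± 49.0 in LT. It fell by 1.28 from summer to winter (edgeR adjusted p = 0.00244), and its warm to cold log2 fold change of 0.67 (edgeR adjusted p = 0.0435), a call lost on leaving out any of 8 libraries, rests on the low IBA level, as SA lay above ET and LT in the mean. CYP7A1, the rate-limiting enzyme of bile acid synthesis, had 100.2 ± 81.3 CPM in SA, 11.8 ± 1.78 in IBA and 1.51 ± 0.414 in Ent. Its lowest SA library had 7.15 CPM. It had at most 0.884 CPM in any ET library and 1.06 in any LT library, with a lowest value of 0 in both states. It fell from warm to cold (edgeR adjusted p = 5.4e-05), but was already low in Ent, and the step from Ent to ET was not called (edgeR adjusted p = 0.334). Abca1 and Abcg8, sterol transporters, had warm to cold log2 fold changes of -0.18 and -0.15 and were not called.

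Of 19 listed ROR alpha targets 13 had a single-gene unit. From warm to cold 6 rose, 6 fell and 1 was not called (median log2 fold change 0.39), beside 64.5% of all units called. From summer to winter 1 rose and 4 fell (median 0.06), beside 44.3%. G6pc, which encodes the last enzyme of glucose release, fell by 3.21 on the log2 scale from warm to cold (edgeR adjusted p = 1.1e-05). In the same comparison CYP8B1 of bile acid synthesis fell by 4.54 (edgeR adjusted p = 1.6e-05) and Insig2 by 0.53 (edgeR adjusted p = 0.0307). The call of Insig2 was lost on leaving out any of 7 libraries and with the replicate number as a block. It was also lost with libraries scaled to total counts or uniquely mapped reads. Insig2 had 233 ± 82.8 CPM in SA, 322 ± 62.0 in IBA, 235 ± 36.9 in ET and 153 ± 18.2 in LT, so SA and ET did not differ beyond their spread. Nr1d1, a clock repressor, rose by 1.91 from warm to cold (edgeR adjusted p = 0.00128).

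Of 15 listed PPAR delta targets 7 had a single-gene unit. From warm to cold 2 rose, 4 fell and 1 was not called (median -0.32), beside 64.5% of all units called. The number that fell was 3 with RLE size factors or total counts and 2 with uniquely mapped reads. Fabp1, which carries fatty acids in the liver cell, had 155 ± 113 CPM in SA, 262 ± 101 in IBA and 31.2 ± 8.29 in ET, and fell by 2.88 on the log2 scale (edgeR adjusted p = 3.0e-05). Pdk4 fell by 1.30 (edgeR adjusted p = 0.0331) and Acaa2 by 0.32 (edgeR adjusted p = 0.0385), calls lost on leaving out any of 6 and any of 10 libraries, respectively. The call of Pdk4 was also lost with uniquely mapped reads, and that of Acaa2 with these, with total counts, RLE size factors or limma-voom and among single-gene units only. Acadvl had a log2 fold change of 0.06 and was not called. Of the 8 genes listed for estrogen receptor alpha 4 had a single-gene unit. In the same comparison 1 rose (Nrip1, by 0.44, a call lost without LT replicate 1) and 3 fell, beside 64.5% of all units. Xbp1 fell by 1.92 (edgeR adjusted p = 4.4e-05), Igfbp4 fell by 1.77 (edgeR adjusted p = 0.0130, a call lost without LT replicate 3) and Foxa1 by 0.74 (edgeR adjusted p = 3.1e-05). Only 2 of 25 genes listed for POR and other electron carriers had a single-gene unit. Pgrmc1 rose by 0.41 (edgeR adjusted p = 0.0446), a call lost on leaving out any of 8 libraries and with the replicate number as a block. Fdx1 was not called, although it was called higher with libraries scaled to uniquely mapped reads and without ET replicate 1.

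Receptor partners and coregulators had 9 single-gene units of 25 listed. Of these 2 rose and 2 fell from warm to cold (median log2 fold change 0.03), beside 64.5% of all units called. With libraries scaled to total counts or to uniquely mapped reads 4 rose and 2 fell. Rxrg, a relative of Rxra, fell by 0.94 on the log2 scale (edgeR adjusted p = 0.00186), whereas Hsp90ab1, a chaperone of these receptors, rose by 0.44 (edgeR adjusted p = 0.00754). Nrip1 also rose. The coactivators Ep300 and Ncoa2 were not called, although Ep300 was called higher with libraries scaled to total counts or uniquely mapped reads, with DESeq2, among single-gene units only and without LT replicate 3. Among other nuclear receptors 13 of 35 had a single-gene unit, and 2 rose and 7 fell (median -0.31), beside the same 64.5%. With libraries scaled to total counts or to uniquely mapped reads 4 rose and 4 fell. Hnf4a, a master regulator of hepatocyte genes, fell by 1.10 (edgeR adjusted p = 1.1e-05), Nr1d2 by 1.19 (edgeR adjusted p = 0.000118) and Nr4a1 by 2.84 (edgeR adjusted p = 3.3e-05), and Nr2f6 was not called, although it was called higher with libraries scaled to total counts or uniquely mapped reads and without Ent replicate 3 or LT replicate 1. Nr4a1 had 98.3 ± 64.9 CPM in SA, 11.9 ± 2.71 in IBA, 5.42 ± 3.12 in ET and 4.18 ± 0.499 in LT, with IBA and ET overlapping.

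**Figure D3:**
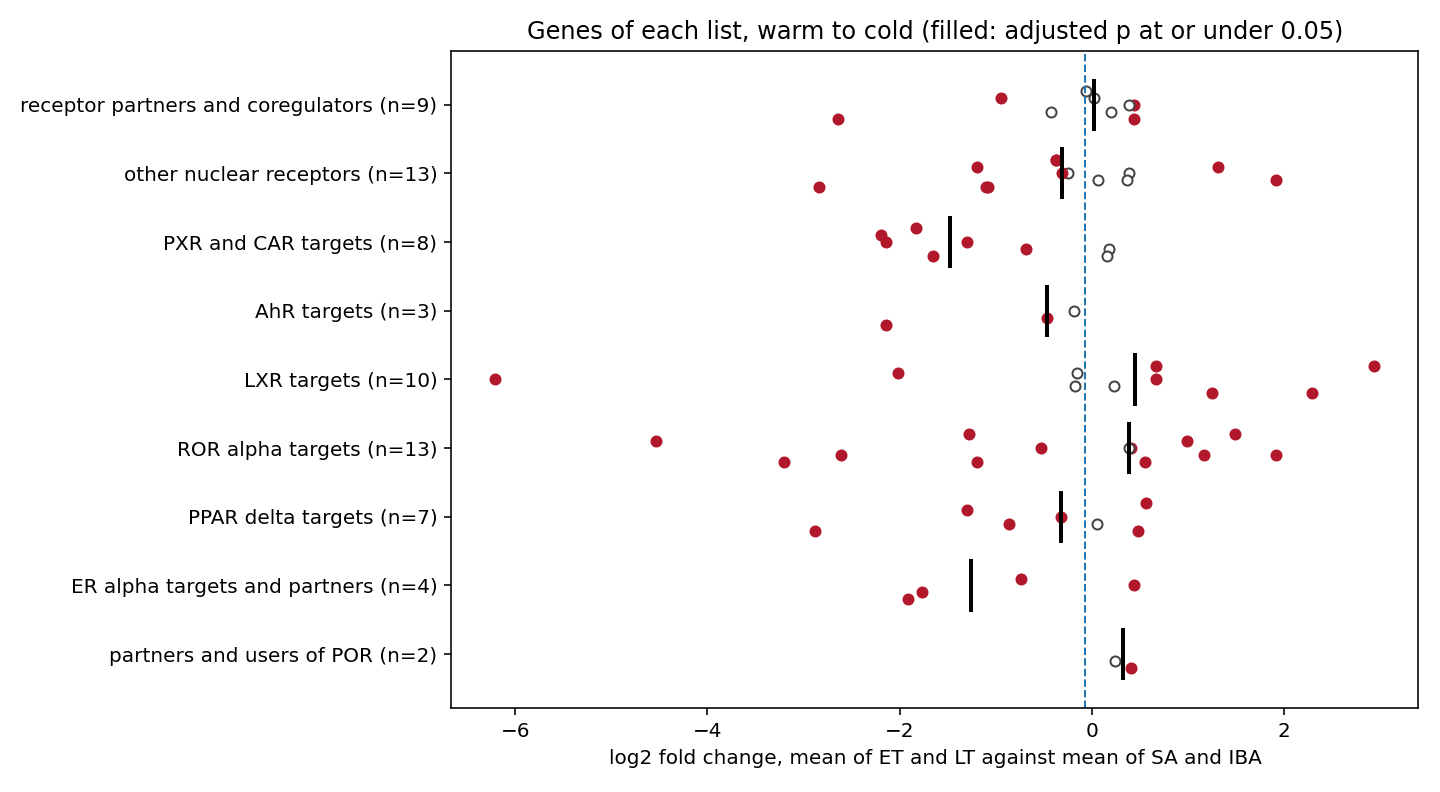
Warm to cold log2 fold change (horizontal axis) of the single-gene units of each list, with genes as points (filled where the adjusted p was at or under 0.05), list medians as black bars and the median over all single-gene units, -0.07, as a dashed line. PXR and CAR targets have a median of -1.48.

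Markers of the tissue moved with these groups. Of 15 hepatocyte markers 8 had a single-gene unit, and from warm to cold 0 rose and 6 fell, beside 64.5% of all units called. Their summed level was 16418, 24463 and 12482 CPM in SA, 14250.2, 9913 and 11396 in IBA, 9086, 7676 and 9273 in Ent, 8172, 3833 and 5532 in ET, and 7560 and 4949 in LT. Every torpid library lay below every SA and IBA library. The most abundant by CPM was Apob (log2 fold change -0.23, not called), while Tat fell by 3.47 on the log2 scale, Ttr by 2.25 and Fgb by 2.00, with edgeR adjusted p-values of at most 0.000575. Of 13 endothelial markers 5 had a single-gene unit and 4 fell, beside the same 64.5%, the call of Pecam1 being lost with uniquely mapped reads. Stab1 had a log2 fold change of 0.39 and was not called (edgeR adjusted p = 0.0668), but was called higher with DESeq2, limma-voom, total counts or uniquely mapped reads and without SA replicate 2 or ET replicate 2. The endothelial sum ranged from 238 to 291 CPM in SA, 257 to 288 in IBA, 249 to 287 in Ent, 152 to 237 in ET and 155 to 172 in LT. Kdr was the most abundant of the 5 by mean CPM. Stellate cells and fibroblasts had 1 such marker of 12 (Rgs5, log2 fold change -0.46, not called, but called lower with upper-quartile scaling, with the replicate number as a block and without SA replicate 2, SA replicate 3, IBA replicate 3 or ET replicate 1), cholangiocytes 2 of 8 (Sox9 was lower), leukocytes 1 of 10 (Itgb2, lower) and Kupffer cells and macrophages 0 of 12. None of these markers with a unit had 0 counts in any library. The part of cell composition in the results was not tested, and fewer cells of a type and less transcription per cell cannot be told apart.

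The units whose log2 CPM over the 14 libraries was most like that of each single-gene member were, with Pearson's r as a description, Ap1ar and Hyi for Nr1i2 (0.95 each), Trak1 (0.91) and Tet2 (0.89) for Ahr, Dido1 and Brf1 for Rxra (0.93 each), Cpped1 (0.82) and Shb (0.81) for Ppard, and Mybbp1a and Gusb for Esr1 (0.68 each). The libraries share their states, so r reflects the state pattern. Neighbouring units not overlapping the member lay 96416 nt upstream (COX17_like) of Nr1i2, 426733 nt upstream (Tspan13) of Ahr and 130750 nt upstream (G23509) of Rxra, all measured on the member's strand. Downstream they lay 154424 nt from Nr1i2, 327341 nt (G16560:Snx13) from Ahr and 944640 nt (Ubac1) from Rxra. Znf76 lay 36888 nt upstream of Ppard, and Syne1 2462 nt downstream of Esr1 on the other strand.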

How the data were processed

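The authors trimmed the reads with cutadapt, aligned them to the HiC_Itri_2 genome with BWA and counted uniquely aligned reads with featureCounts on gene bodies extended with fstitch, leaving out the first part of each gene and merging overlapping genes. The deposited values are raw counts per unit and library, and the deposited unit lengths in nt gave CPM per kb. Versions of these tools are not given in the sources used here.

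Counts of all 14 libraries and 6324 units were normalized by TMM and fitted in 1 quasi-likelihood model of the 5 states with edgeR 4.0.16 under R 4.3.3, with no filter (filterByExpr would remove 0 units). p-values were adjusted over all genes in the table by Benjamini-Hochberg. The 95% intervals used t quantiles and, as standard error, the log2 fold change divided by the root of the F statistic. A prior count of 2 was added for log2 CPM. The members, lists and threshold were chosen with earlier results of these data known. From each list the 4 genes highest by CPM per kb and the 2 with the largest warm to cold change among those called were named, with the nearest units and the 2 most alike units; a few genes that this rule would name are not analysed here. List genes were counted only where they had a single-gene unit. Other settings tried were 4 normalizations, limma-voom (limma 3.58.1) and DESeq2 1.42.0 in place of edgeR, a filter of 10 counts, single-gene units only, an adjusted p of 0.001, a block for the replicate number, a term for the season, each library left out and edgeR with adjusted deviances, the last added after the data were seen. The steps were tested on simulated data. Library size normalization cannot show a change in total transcription.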

Additional observations from a re-analysis of the deposited data

How the results depend on the processing

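Of 18 called values of the 8 units, compared 195 times with a planned or added setting, 178 comparisons kept the call and its direction, as did 228 of 252 with 1 library left out, and 0 changed sign. All 6 warm to cold calls were kept at an adjusted p of 0.05 in each setting that gave the unit a value, and without any 1 library. Uncalled values became called 8 times in other settings and 10 times with a library left out. Without an LT library, the lone LT library is assumed to vary like the other groups.

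The number of units called from Ent to ET was 2 with DESeq2 (34.5% of all units), with upper-quartile scaling (28%) and with the replicate block (25.9%). It was 1 with edgeR and TMM (28.8%), and the added unit was Apoa2:Nr1i3. Among single-gene units only, where 5 of the 8 units are present, the number was 3 among the 5 states (63.7% of all single-gene units called), 2 from LT to IBA (51.3%), 3 from warm to cold (65.4%) and 3 from summer to winter (45.8%). At an adjusted p of 0.001 it was 2 among the 5 states (25.5% of all units), 0 from IBA to Ent (0.0316%), 0 from LT to IBA (17.4%), 4 from warm to cold (36.3%, without Rxra and Ice2:Rora) and 2 from summer to winter (11%), by the stricter threshold itself; at an unadjusted p of 0.05 edgeR gives 3 and 5 units for the steps with 0. Leaving out 1 library of a state other than LT gave from 1 to 3 units from Ent to ET, beside 19.5% to 32.6% of all units. For IBA to Ent it gave from 0 to 2 (6.2% to 20%), and for LT to IBA from 2 to 5 (42.4% to 52.8%). With uniquely mapped reads as library size, 1 AhR target and 2 genes listed for POR and other electron carriers were called from warm to cold, beside 64.8% of all units. Of all units called there 63.4% had risen, beside 47.7% with TMM. The call of Madd:Nr1h3 from LT to IBA (log2 fold change 0.43) was lost with RLE (0.41), total counts (0.33), uniquely mapped reads (0.25), the replicate block (0.39) and the season (0.52). The season fit leaves out ET and gives no value for comparisons with it. The setting of adjusted deviances in edgeR was chosen after the data were seen.

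The replicate numbers share only a number: over 26 pairs of libraries with the same number the mean r of deviations from the group means was 0.0038, and over 52 pairs with different numbers -0.0020. With the replicate block 62.2% of all units were called from warm to cold, beside 64.5%, and 6 members in both.

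Values that changed sign, none of them called, were these, and the cause was not tested. With DESeq2, the log2 fold change was 0.00162 for Esr1 from Ent to ET. With limma-voom, the log2 fold change was 0.0486 for Ahr from Ent to ET, 0.00335 for Esr1 from Ent to ET. With RLE size factors, the log2 fold change was 0.00157 for Esr1 from Ent to ET. With upper-quartile scaling, the log2 fold change was -0.0138 for Ice2:Rora from ET to LT. Scaled to total counts, the log2 fold change was 0.0387 for Ahr from Ent to ET, 0.0283 for Esr1 from Ent to ET. Scaled to uniquely mapped reads, the log2 fold change was 0.0960 for Ahr from Ent to ET, 0.0520 for Madd:Nr1h3 from Ent to ET, 0.0981 for Esr1 from Ent to ET, -0.0613 for Ice2:Rora from ET to LT, -0.0127 for Esr1 from ET to LT. With the replicate block, the log2 fold change was 0.0117 for Esr1 from Ent to ET, 0.0107 for Madd:Nr1h3 from ET to LT, -0.0374 for Ice2:Rora from ET to LT. With the season as a term, the log2 fold change was -0.0100 for Esr1 from SA to IBA, -0.0484 for Ahr from LT to IBA.

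Leaving out 1 library at a time changed the sign of uncalled values, whose lowest and highest log2 fold changes follow. For Ent to ET: Ahr from -0.24 to 0.29, Esr1 from -0.19 to 0.16, Madd:Nr1h3 from -0.21 to 0.0705. For SA to IBA: Apoa2:Nr1i3 from -0.21 to 0.36, Esr1 from -0.0947 to 0.21, Ppard from -0.17 to 0.64. For ET to LT: Esr1 from -0.0328 to 0.18, Ice2:Rora from -0.13 to 0.16, Madd:Nr1h3 from -0.13 to 0.10, Nr1i2 from -0.12 to 0.36, Rxra from -0.19 to 0.60. For IBA to Ent: Ice2:Rora from -0.0679 to 0.16, Nr1i2 from -0.0202 to 0.0882. For summer to winter: Ppard from -0.10 to 0.71. For warm to cold: Ppard from -0.0179 to 0.40.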
